A study of Mus musculus with 27 samples.

Results

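The secreted Wnt antagonists are extracellular proteins that keep Wnt ligands from signalling. The group was defined by a list of 9 gene symbols, Sfrp1, Sfrp2, Sfrp4, Sfrp5, Frzb, Dkk1, Dkk2, Dkk3 and Wif1, and the rule sets no threshold on a measured value. All 9 were found by their Ensembl identifiers among the 37991 genes of the deposited tables. The cells were taken from the skull vault of neonatal C57BL/6J mice, 5 to 9 days of age, that carried a cyan fluorescent protein transgene (Col3.6 CFP) driven by a fragment of the type I collagen promoter, and every sample shared this genotype and was sorted for the fluorescent protein. The sorted cells were then grown in medium with ascorbic acid and beta-glycerol phosphate, which osteoblast cultures need to lay down and mineralise matrix, and RNA was collected on days 2, 4, 6, 8, 10, 12, 14, 16 and 18. The 9 groups are these 9 days, with 3 expression profiles each and 27 profiles in all. The design has no untreated or undifferentiated arm, the sort enriched for cells in which a collagen promoter was active rather than for 1 defined cell type, and whether the cells of several mice were pooled is not given in the sources used here.

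Wnt ligands bind a Frizzled receptor together with the co-receptor Lrp5 or Lrp6, and the signal stabilises beta-catenin and promotes bone formation by osteoblasts. Secreted Frizzled-related proteins (Sfrp genes and Frzb) and Wif1 bind the ligand itself, whereas Dickkopf proteins (Dkk genes) act at the co-receptor, with Kremen proteins as partners. Several of these antagonists are known regulators of bone mass, and osteoblasts and osteocytes are among the cells that make them.

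The study's methods describe the profiles of a day as triplicate samples, without saying whether these were separate cultures. The 3 profiles of a day carried 1 barcode and came from 3 sequencing lanes, and were therefore counted here as 1 sample. On this reading no day has a biological replicate, and every SD and p-value below rests on it. Over genes whose counts were whole numbers, the lanes of a day differed by no more than sampling noise (chi-square per degree of freedom 0.999 to 1.02). The total estimated count per day ranged from 22470195 on day 10 to 62009157 on day 12, with a median of 43146793. Levels are given in TPM (transcript abundance relative to all transcripts of a profile, a measure per length), scaled to the upper quartile of each profile, as the mean ± SD over the 3 lanes of a day. This SD covers sequencing and quantification only. A gene was called expressed on a day at 1 TPM or more. In the tests across days the 9 summed libraries stand for the time course, and their p-values measure the scatter of single days around a fitted curve, not the spread between cultures.

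Of the 9 antagonists, 4 (Sfrp1, Sfrp2, Dkk2 and Dkk3) were expressed on every day, 7 were expressed on day 18, and Sfrp5 and Wif1 did not reach 1 TPM on any day. Sfrp2, Sfrp4 and Sfrp1 showed the greatest relative increases among the expressed members, from 34.1-fold to 250-fold between day 2 and day 18. A straight line in day (edgeR quasi-likelihood test, Benjamini-Hochberg adjusted p under 0.05 over all genes tested) was fitted to the 8 members that passed the filter on low counts. Sfrp1, Sfrp2, Sfrp4, Frzb, Dkk1 and Dkk3 rose, Wif1 fell and Dkk2 did not pass. Over all 15659 genes tested, 28.3% rose and 26.1% fell. Dkk1 passed the filter only through its late days and Wif1 only through its early days, so that for both a difference between days was a condition of being tested. In these bulk samples, more cells of a type and more RNA per cell cannot be told apart. Over the same days 6 of 7 monocyte and macrophage markers and all 5 adipocyte markers rose, and their part in the levels of the antagonists was not tested.

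**Figure D1:**
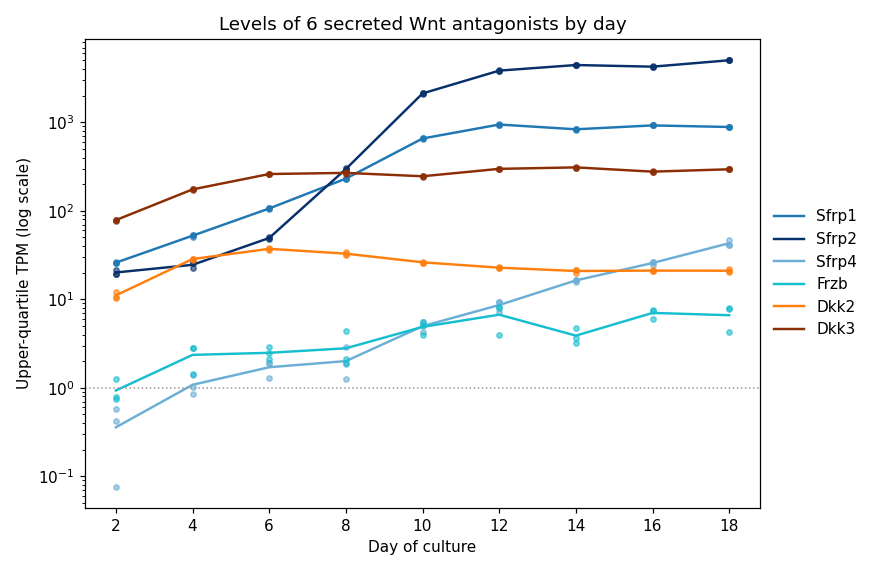
Upper-quartile TPM on a log axis against day of culture for the 6 antagonists that were expressed on most days; points are the 3 lane profiles of a day, lines join their means and the dotted line marks 1 TPM. Sfrp2 passed from 20.1 TPM on day 2, below Dkk3 and Sfrp1, to 5024 TPM on day 18, above all others.

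To show the genomic setting of members with unlike time courses, the 250 bases before the transcription start are printed for Sfrp2 and Dkk1, which rose late, for Dkk2, which peaked on day 6, and for Wif1, which fell. The sequences come from RefSeq on GRCm38.p6, a later build than that of the expression files, and 6 of the 9 members (Sfrp2, Sfrp5, Frzb, Dkk1, Dkk2 and Wif1) had an entry in the table. Sfrp2 is on the plus strand at chr3:83766071-83766320, Dkk1 on the minus strand at chr19:30549497-30549746, Dkk2 on the plus strand at chr3:132085042-132085291 and Wif1 on the plus strand at chr10:121033754-121034003. Capitals mark letters that match 1 of 4 short motifs on either strand: the core CTTTGA of the TCF/LEF factors, the nuclear partners of beta-catenin, the RUNX core TGTGGT, the TATA motif TATAAA and the GC box GGGCGG. No match overlapped another.
Sfrp2: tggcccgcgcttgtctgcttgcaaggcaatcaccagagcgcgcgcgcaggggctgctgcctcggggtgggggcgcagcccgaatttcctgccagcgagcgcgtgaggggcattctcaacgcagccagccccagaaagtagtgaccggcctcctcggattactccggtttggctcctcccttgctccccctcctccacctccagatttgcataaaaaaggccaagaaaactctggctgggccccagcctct
Dkk1: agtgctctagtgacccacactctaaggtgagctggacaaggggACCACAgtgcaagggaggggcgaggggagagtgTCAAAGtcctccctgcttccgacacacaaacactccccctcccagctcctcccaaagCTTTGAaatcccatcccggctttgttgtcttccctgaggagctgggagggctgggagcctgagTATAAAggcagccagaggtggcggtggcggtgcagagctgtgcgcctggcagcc
Dkk2: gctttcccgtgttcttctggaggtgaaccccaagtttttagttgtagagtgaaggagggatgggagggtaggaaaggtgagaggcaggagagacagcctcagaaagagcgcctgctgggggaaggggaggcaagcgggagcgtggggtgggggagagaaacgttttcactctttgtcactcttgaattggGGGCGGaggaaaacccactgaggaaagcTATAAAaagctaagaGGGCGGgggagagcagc
Wif1: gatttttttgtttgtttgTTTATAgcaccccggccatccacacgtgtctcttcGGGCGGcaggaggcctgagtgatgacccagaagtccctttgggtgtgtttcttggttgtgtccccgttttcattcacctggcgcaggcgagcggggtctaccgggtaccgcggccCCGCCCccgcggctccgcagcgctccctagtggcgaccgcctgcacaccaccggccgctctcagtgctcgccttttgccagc

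The Dkk1 window held 2 TCF/LEF matches, whose upstream edges lay 174 and 117 bases before the start, with a RUNX match at 207 and a TATA match at 54. The Dkk2 window held a TATA match at 32 and GC boxes at 60 and 17 bases, and the Wif1 window a TATA match at 232 and GC boxes at 197 and 82 bases. The Sfrp2 window, at 63.6% G and C, held none of the 4 motifs. Among the windows not printed, that of Frzb held a TCF/LEF match at 95 and a GC box at 51 bases, and that of Sfrp5 a RUNX match at 192 and a GC box at 43 bases. Of the 32851 promoter windows of the same length in the table, 13.8% held the TCF/LEF letters, 14.1% the RUNX letters, 12.4% the TATA letters and 32.7% the GC box. These are matches of letters, and no binding was measured.

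Sfrp2 (ENSMUSG00000027996; chromosome 3, 83570243 to 83578238, plus strand, NCBIM37), which binds Wnt ligands and is made by many mesenchymal cells, became the most abundant antagonist. At 2-day intervals from day 2 to day 18, its level was 20.1 ± 1.38, 24.5 ± 1.89, 49.3 ± 1.44, 297 ± 8.75, 2120 ± 19.2, 3838 ± 25.3, 4439 ± 28.3, 4253 ± 19.4 and 5024 ± 9.56 TPM. The early days 2 to 6 and the late days 14 to 18 did not overlap, and the steepest step was 7.14-fold between day 8 and day 10. The share of all genes without such overlap, which bears also on Frzb and Wif1 below, is not given here. By level, Sfrp2 ranked 4760 among all genes at the start, 29 by day 10 and 8 at the end. The line gave a log2 change of 9.83 over the 16 days (SE 1.71, adjusted p = 0.000842, edgeR quasi-likelihood test). In 23 of the 27 profiles its estimated count was not a whole number, so that some of its reads were shared with other transcripts, and a gene on the opposite strand, Gm16790, overlaps it but held 431 counts in all against 972792 for Sfrp2.

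Sfrp1 (ENSMUSG00000031548; chromosome 8, 24521974 to 24560104, plus strand), whose loss raises trabecular bone mass in mice, rose until day 12 and then levelled off. Over the same 9 days it stood at 25.95 ± 0.412, 52.35 ± 1.64, 106 ± 0.349, 231 ± 4.30, 656 ± 7.83, 944 ± 3.14, 834 ± 6.92, 923 ± 2.07 and 885 ± 1.42 TPM. Sfrp1 increased at every step up to day 12, with the steepest step of 2.84-fold between day 8 and day 10, and days 12 to 18 all lay above days 2 to 10. It reached 50% of its own maximum on day 10, against day 12 for Sfrp2. The fitted log2 change was 5.51 (SE 0.94, adjusted p = 0.00075, edgeR quasi-likelihood test).

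Sfrp4 (ENSMUSG00000021319; chromosome 13, 19714973 to 19724863, plus strand), a regulator of cortical bone thickness, was the only member that increased at all 8 steps between neighbouring days. In order of day, its level was 0.358 ± 0.255, 1.081 ± 0.274, 1.71 ± 0.368, 2.00 ± 0.81, 4.97 ± 0.649, 8.62 ± 1.32, 16.35 ± 0.597, 25.7 ± 1.19 and 43.0 ± 3.43 TPM. The step from day 6 to day 8 was smaller than the lane SD, and the other 7 steps were larger. Sfrp4 reached 50% of its maximum only on day 16 and had not levelled off by day 18, unlike Sfrp1. It rested on 16 counts on day 2 and 1786 on day 18, and the fitted log2 change was 6.45 (SE 0.25, adjusted p = 7.63e-07, edgeR quasi-likelihood test).

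Frzb (ENSMUSG00000027004; chromosome 2, 80252127 to 80287782, minus strand), a Frizzled-related antagonist first known from developing cartilage, was expressed weakly. From day 2 on it was at 0.933 ± 0.284, 2.36 ± 0.801, 2.49 ± 0.396, 2.80 ± 1.34, 4.88 ± 0.841, 6.70 ± 2.43, 3.89 ± 0.768, 7.02 ± 0.882 and 6.61 ± 2.04 TPM. Days 14 to 18 lay above days 2 to 6 without overlap, but 6 of the 8 pairs of neighbours in the order of levels differed by less than the lane SD. The spread between lanes reached 47.8% of the mean, and the effective length that RSEM assigned to this gene with 2 annotated transcripts varied from 2024 to 2703 bases between days. The fitted log2 change was 2.23 (SE 0.37, adjusted p = 0.000655, edgeR quasi-likelihood test).

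Sfrp5 (ENSMUSG00000018822; chromosome 19, 42272461 to 42276742, minus strand), known as a product of fat tissue, had 2 counts in all, 1 on day 10 and 1 on day 16. It was not tested. Sfrp5 was not detectable at this depth on the other 7 days, where a count of 0 allows up to 3 counts, from 0.0484 CPM (counts scaled to the library total) on day 12 to 0.101 CPM on day 8.

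Wif1 (ENSMUSG00000020218; chromosome 10, 120471016 to 120537706, plus strand), which binds Wnt ligands through a domain unlike that of the Frizzled-related proteins, was the only member that fell. Its counts in order of day were 32, 39, 26, 8, 3, 0, 4, 9 and 8. The levels were 0.581 ± 0.221, 0.715 ± 0.342 and 0.65 ± 0.138 TPM on the 3 early days (days 2, 4 and 6), 0.25 ± 0.102 and 0.119 ± 0.104 TPM on days 8 and 10, and 0.0815 ± 0.0206, 0.184 ± 0.165 and 0.19 ± 0.105 TPM on the 3 late days (days 14, 16 and 18), and day 12 was listed at 0. All 3 early days were above all 3 late days, although every value was under the 1 TPM used to call a gene expressed. Summed over days 2 to 6, Wif1 had 97 counts, or 0.759 CPM (95% Wilson interval 0.623 to 0.926), against 21 counts, or 0.15 CPM (0.098 to 0.229), over days 14 to 18. These intervals cover counting error only. Day 4, at 0.922 CPM (95% Wilson interval 0.6745 to 1.26), was at this point value at least 19.1-fold higher than day 12, when 3 counts are taken as the limit for that library. This ratio sets the highest day against the only day with 0 counts and leaves out the counting error of day 4. The fitted log2 change over the 9 days was -2.97 (SE 1.09, adjusted p = 0.0391, edgeR quasi-likelihood test). This call was lost when any of days 2, 4, 6, 14 or 16 was left out (fitted changes -2.99, -2.54, -2.88, -2.79 and -3.30 with adjusted p from 0.0588 to 0.114), and without the lane profiles numbered 1 (-2.35, adjusted p = 0.0848). On log2(TPM + 0.5), limma gave a change of -1.02 (adjusted p = 0.0227).

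Dkk1 (ENSMUSG00000024868; chromosome 19, 30620353 to 30624155, minus strand), the Dickkopf that blocks Lrp5 and Lrp6 and lowers bone mass, was expressed only towards the end. Its counts from day 2 to day 18 were 5, 2, 1, 3, 2, 14, 22, 69 and 85. The level was 1.05 ± 0.284 TPM on day 16 and 1.47 ± 0.289 on day 18, and between 0.0194 and 0.367 TPM on the 7 days before. Dkk1 was therefore called expressed on the last 2 days alone. Summed over days 2 to 6 it had 8 counts, or 0.0626 CPM (95% Wilson interval 0.0317 to 0.124), and over days 14 to 18 it had 176 counts, or 1.26 CPM (1.083 to 1.46). All 8 early counts came from the lane profiles numbered 1, an unevenness that the interval does not cover. The fitted log2 change was 5.56 (SE 0.88, adjusted p = 0.000489, edgeR quasi-likelihood test), and without day 14, day 18 or the lane profiles numbered 3 it did not pass the filter and could not be tested. Without the lane profiles numbered 1 the fitted change was 9.70. On log2(TPM + 0.5), limma gave a change of 1.78 (adjusted p = 0.00292).

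**Figure D2:**
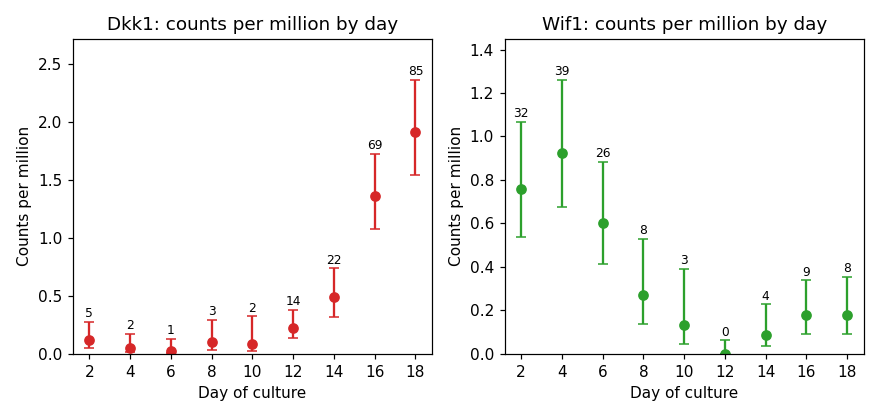
CPM (counts scaled to the library total) of Dkk1 and Wif1 by day, summed over 3 lanes, with 95% Wilson intervals for counting error and the number of counts above each bar. Dkk1 has 1 to 5 counts up to day 10 and 85 on day 18, whereas Wif1 has 26 to 39 counts on days 2 to 6 and 0 to 9 from day 8 on.

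Dkk2 (ENSMUSG00000028031; chromosome 3, 131748256 to 131843257, plus strand), which can activate or block the pathway depending on its partners, had the only peak before day 10 among the members above 1 TPM. Day by day it stood at 11.1 ± 0.828, 28.5 ± 0.531, 37.2 ± 0.808, 32.8 ± 1.62, 26.2 ± 0.444, 22.8 ± 0.402, 20.9 ± 0.925, 21.1 ± 0.22 and 21.04 ± 0.774 TPM. The late days lay within the range of the early days, and the last 3 days differed by less than their lane SD. Dkk2 did not pass the test of a line (log2 change -0.31, SE 0.47, adjusted p = 0.603, edgeR quasi-likelihood test), but it passed a natural cubic spline over the days (3 degrees of freedom), which allows a peak (adjusted p = 0.00025). With day 2 left out the line fell by 0.98 on the log2 scale (adjusted p = 0.00513), so that the low value of day 2 decided the fit, and a spline with 2 degrees of freedom was not passed (adjusted p = 0.155).

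Dkk3 (ENSMUSG00000030772; chromosome 7, 119259533 to 119302571, minus strand), a divergent Dickkopf whose part in Wnt inhibition is less settled, was the leading antagonist in the first days. Across the 9 days its level was 78.55 ± 1.10, 175 ± 2.05, 260 ± 1.198, 268 ± 6.09, 246 ± 4.29, 298 ± 2.33, 309.5 ± 4.66, 277 ± 3.01 and 295 ± 1.11 TPM. The increase was made between day 2 and day 6, and from day 6 on every value lay between 246 and 309.5 TPM. The fitted log2 change was 1.14 (SE 0.40, adjusted p = 0.032, edgeR quasi-likelihood test). The call was lost without day 2 (0.54, adjusted p = 0.062), day 4 (1.14, adjusted p = 0.0728) or day 14 (1.11, adjusted p = 0.0585).

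Tests of other shapes gave each member a further value. The natural spline was passed by all 8 members tested, where 57.5% of 16256 genes passed, with adjusted p from 1.51e-08 for Sfrp4 to 0.0157 for Wif1 (edgeR quasi-likelihood test). Without day 4 Wif1 did not pass the spline (adjusted p = 0.077, edgeR quasi-likelihood test). As for the line, Dkk1 and Wif1 passed the filter only through the days on which they were high. Both are among the 8 members, and for them a difference between days was a condition of being tested. In the comparison of days 14, 16 and 18 with days 2, 4 and 6, where neighbouring days stand in for replicates, Sfrp2 was higher late by 7.14 on the log2 scale (SE 0.39, adjusted p = 2.3e-05), Sfrp4 by 4.69 (SE 0.55, adjusted p = 0.000395), Dkk1 by 4.34 (SE 0.77, adjusted p = 0.0024), Sfrp1 by 3.79 (SE 0.45, adjusted p = 0.000437) and Frzb by 1.53 (SE 0.32, adjusted p = 0.00527). Wif1 fell by 2.25 (SE 0.49, adjusted p = 0.00622). Here too, Dkk1 passed the filter only through its late days and Wif1 only through its early days. For both, a difference between early and late days was a condition of being tested. Dkk3 (0.73, SE 0.34, adjusted p = 0.11) and Dkk2 (-0.33, SE 0.35, adjusted p = 0.447) did not pass. Over all 15148 genes tested, 26.6% were higher and 25.2% lower on the late days. The line, the spline and this comparison rest on the same libraries and are not separate evidence.

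**Figure D3:**
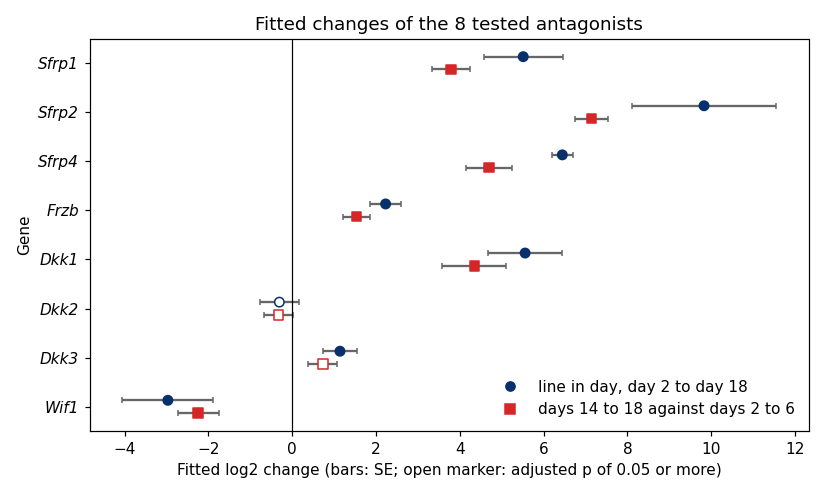
Fitted log2 changes of the 8 tested antagonists, as circles for the line over days 2 to 18 and squares for days 14 to 18 against days 2 to 6, with bars of 1 SE; open markers did not pass an adjusted p of 0.05. Sfrp2 has the largest fitted change at 9.83, Wif1 is the only member below 0 among those that passed, and Dkk2 lies at -0.31 with both markers open.

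The order of the antagonists was turned over between day 6 and day 10. On days 2, 4 and 6 the order began with Dkk3 and Sfrp1, on day 8 with Sfrp2 and Dkk3, and from day 10 on with Sfrp2, Sfrp1 and Dkk3. Sfrp4 and Frzb could not be ordered on day 8 (2.00 and 2.80 TPM), day 10 (4.97 and 4.88 TPM) or day 12 (8.62 and 6.70 TPM). On these days they differed by less than the larger lane SD. Sfrp4 lay above Frzb from day 14 on and passed Dkk2 on day 16. As a share of the summed TPM of the 9 members, which does not depend on the scaling between days, Dkk3 held 57.1% (day 2), 32.2% (day 8), 8.03% (day 10) and 4.69% (day 18). Sfrp2 held 14.6%, 35.6%, 69.3% and 80.1% on these days. The Dickkopf genes together went from 65.2% to 5.05% and the Sfrp genes with Frzb from 34.4% to 94.9%. In level, Dkk3 was 3.75-fold and Dkk2 1.90-fold higher on day 18 than on day 2.

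**Figure D4:**
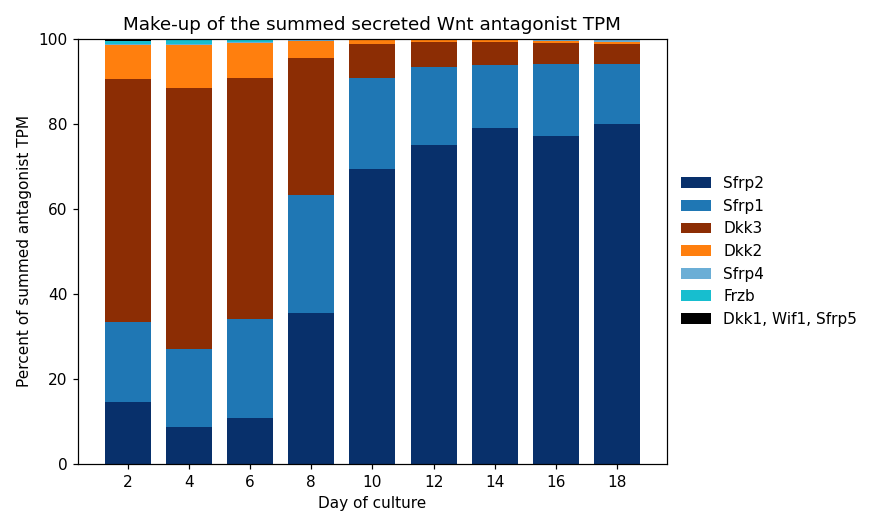
Each antagonist's percent of the summed TPM of the 9 members, stacked from 0 to 100 for each day. Dkk3 takes 57.1% of the bar on day 2 and 4.69% on day 18, while Sfrp2 grows from 14.6% to 80.1%.

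The summed level of the 9 antagonists was 138, 284, 458, 834, 3059, 5118, 5624, 5508 and 6276 TPM from day 2 to day 18. This was a 45.6-fold difference between the ends of the series, and the sum made up 0.0144% of all TPM on day 2 and 0.594% on day 18. Without Sfrp2 the sum went from 117.5 to 1252 TPM, or 10.7-fold.

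Across the 9 days, the log2 levels of Sfrp1 and Sfrp2 ran closest together (Pearson r = 0.985), followed by those of Sfrp1 and Frzb (0.939). Wif1, at 0 to 39 counts a day and under 1 TPM throughout, ran opposite to Sfrp2 (-0.927) and to Sfrp1 (-0.905). Dkk2 had no close partner in the group, with r from -0.269 with Dkk1 to 0.635 with Dkk3. These values describe 9 libraries from 1 time course, in which 28.3% of the genes tested rose with day, and are given without a test. Among the 7655 or 7656 genes with a mean of at least 10 TPM, the time courses most like that of Sfrp1 were Glt8d2 (r = 0.999), the growth arrest gene Gas1 (0.998) and the R-spondin Rspo2 (0.998). For Sfrp2 they were the scavenger receptor Scara5 (0.999), the matrix gene Matn4 (0.998) and Pgm5 (0.998), and for Sfrp4 the thyroid hormone deiodinase Dio2 (0.997), Fam3a (0.995) and the lipoprotein gene Apoe (0.994). Dkk1, with 1 to 5 counts a day up to day 10, was nearest to the fatty acid desaturase Scd1 (0.969) and to the osteocalcin genes Bglap (0.967) and Bglap2 (0.96). These 2 are near-identical copies whose reads RSEM had to divide. Dkk3 was nearest to the matrix genes Efemp1 (0.993) and Thbs2 (0.99) and to Pcdhgc5 (0.99). Dkk2 was nearest to Serpinb1a (0.974), Scd2 (0.965) and Eps8 (0.956), Frzb to Sall2 (0.992), Ngly1 (0.987) and Ssbp2 (0.984), and Wif1 to Ggct (0.982), Noc4l (0.981) and Cyb5b (0.98).

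The genes around the antagonists in the pathway were read from 5 lists. Of the 19 Wnt ligands, which the antagonists bind or oppose, 9 passed the filter, of which 3 rose, 4 fell and 2 did not pass (edgeR quasi-likelihood test, line in day), where 28.3% of all genes tested rose and 26.1% fell. Wnt5a, a ligand best known for signalling outside beta-catenin, had the highest mean level, 27.03 TPM, and rose by a fitted log2 change of 0.46 (adjusted p = 0.0302), and Wnt5b rose by 1.38 (adjusted p = 0.00139). Wnt10b, a ligand that favours bone over fat, fell by 4.88 (adjusted p = 0.00502). This change rests on low levels, since Wnt10b held 159 counts in all and reached 1 TPM on day 2 alone (2.095 TPM). On the late days Wnt10b was at most 0.1625 TPM. Wnt2 fell by 2.80 (adjusted p = 0.0014), Wnt2b fell by 1.84 (adjusted p = 0.0019) and Wnt9a fell by 0.90 (adjusted p = 0.0133). Wnt16 rose by 4.19 in counts (adjusted p = 0.00074), from 18 counts on day 2 to 200 on day 18, whereas its TPM was 18.6 on day 2 and 6.27 on day 18, with an effective length for this gene of 4 transcripts that ranged from 371 bases on day 2 to 1791 on day 8. The summed ligand level was 54.3 TPM on day 2 and 40.3 on day 18, and without Wnt16 it was 35.6 and 34.0. The antagonist sum was thus 3.86 times the ligand sum without Wnt16 on day 2 and 184.7 times on day 18.

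Of 15 receptors and co-receptors, 14 passed the filter, 9 rose, 2 fell and 3 did not pass, beside 28.3% rising and 26.1% falling over all genes. Fzd9 rose by a fitted log2 change of 5.95 (SE 1.81, adjusted p = 0.0175, edgeR quasi-likelihood test), Fzd4 by 4.41 (adjusted p = 0.000332) and the receptor kinase Ror1 by 3.06 (adjusted p = 0.00362). The change of Fzd9 starts near 0, with at most 0.169 TPM on days 2 to 6 and 1.08 to 2.93 TPM on days 14 to 18. Fzd6 fell by 2.10 (adjusted p = 0.00054) and Ryk fell by 1.17 (adjusted p = 0.00012). The highest mean levels were those of Fzd1 (91.1 TPM) and of the Dickkopf target Lrp6 (66.9 TPM), followed by Ryk (41.5 TPM). The list summed to 225 TPM on day 2 and 479 on day 18.

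Among 12 other inhibitors and Dickkopf partners, 6 passed the filter, 4 rose and 2 did not pass, against the same 28.3% and 26.1% over all genes. Igfbp4, a growth factor binding protein that also restrains Wnt signalling, had 56.8 TPM on day 2 and 1079 on day 18 and rose by 4.23 (adjusted p = 4.75e-05). Draxin rose by 2.85 (adjusted p = 0.0163) and the membrane inhibitor Apcdd1 by 2.36 (adjusted p = 0.000713). Kremen1, the partner of Dkk1, stayed between 10.04 and 13.02 TPM and did not pass (adjusted p = 0.562), and Lrp4 (mean 6.60 TPM) rose by 0.61 (adjusted p = 0.0137). Sost, the osteocyte antagonist sclerostin, did not pass the filter and was at most 0.113 TPM.

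R-spondins strengthen Wnt signalling through Lgr receptors. Of the 7 R-spondin and Lgr genes, 6 passed the filter, 4 rose, 1 fell and 1 did not pass, again beside 28.3% and 26.1% over all genes. Lgr5 went from 0.646 to 150.5 TPM and rose by 7.96 (adjusted p = 0.000442), Rspo3 rose by 5.57 (adjusted p = 0.00108; mean 148 TPM) and Rspo1 by 5.24 (adjusted p = 8.21e-05). Rspo2 rose by 5.22 (adjusted p = 0.000657), and Lgr6 fell by 2.85 (adjusted p = 0.037).

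Of 12 feedback and target genes, 11 passed the filter, 2 rose, 3 fell and 6 did not pass, beside 28.3% and 26.1% over all genes. Nkd1, an intracellular feedback inhibitor, rose by 4.97 (adjusted p = 0.00198) and Tnfrsf19 by 1.93 (adjusted p = 0.0408). Lef1 fell by 2.62 (adjusted p = 0.0323, edgeR quasi-likelihood test), Myc fell by 1.50 (adjusted p = 8.85e-05) and Ccnd1 fell by 0.85 (adjusted p = 0.024). Lef1 reached 1 TPM on day 2 alone (2.01 TPM) and had a mean of 0.41 TPM. Nkd2, with a mean of 9.78 TPM, did not pass (adjusted p = 0.511). Axin2, a widely used target gene of beta-catenin, stayed between 2.76 and 4.21 TPM and did not pass (log2 change 0.45, SE 0.18, adjusted p = 0.0573). The list summed to 342 TPM on day 2 and 297 on day 18, of which Ccnd1 alone held 248 and 226 TPM. The medians of the fitted log2 changes were -0.90 for ligands, 1.81 for receptors, 1.49 for other inhibitors, 5.23 for R-spondins and their receptors, -0.13 for feedback and target genes and 0.05 over all genes tested.

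**Figure D5:**
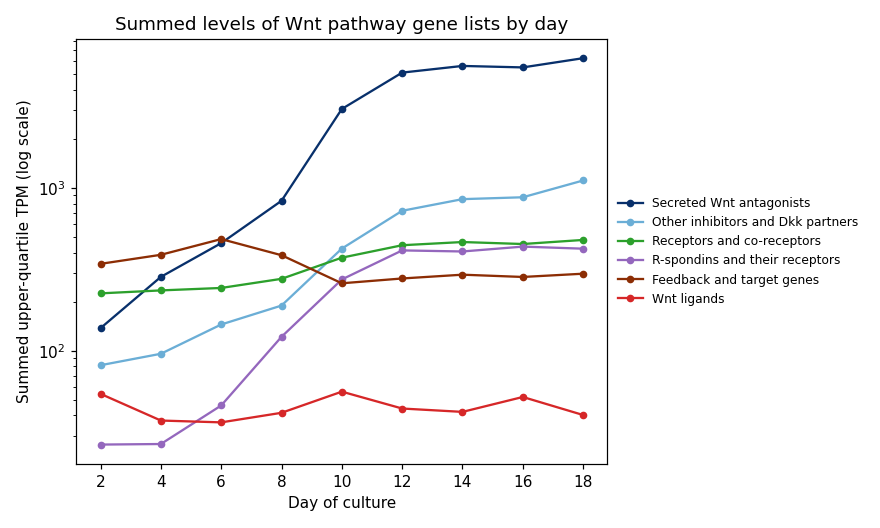
Summed upper-quartile TPM on a log axis against day for the 9 antagonists and 5 lists of pathway genes, 1 point a day. The antagonists go from 138 to 6276 TPM and the R-spondin list from 26.5 to 424 TPM. The ligands lie between 36.3 and 56.0 TPM with Wnt16, and between 33.98 and 39.65 TPM without it. The target list lies between 260 and 485 TPM, most of it Ccnd1, which ranges from 201 to 415.5 TPM.

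Markers of osteoblasts and of other cells were read from 7 lists, beside the 28.3% of all genes tested that rose and the 26.1% that fell. Of 12 osteoblast markers 8 rose and 4 (Sp7, Alpl, Spp1 and Pth1r) did not pass, and their summed level was 3011 to 5287 TPM on days 2 to 6 and 7817 to 9614 TPM on days 14 to 18. On day 2 the osteocalcin gene Bglap was at 1.24 TPM and Ibsp at 0.581 TPM. On the same day Col1a1 was at 1526 TPM, Spp1 at 402 TPM, Runx2 at 46.4 TPM and Sp7 at 32.3 TPM, its highest level. Of 7 monocyte and macrophage markers 6 rose, and their sum went from 24.1 to 61.7 TPM on the early days to 522 to 2014 TPM on the late days. All 5 adipocyte markers rose, from 3.21 to 7.44 TPM to 188 to 407 TPM. All 4 smooth muscle markers fell, from 3031 to 6182 TPM to 987 to 1131 TPM. Of 4 osteoclast markers 2 rose, with sums of 37.2 to 85.6 TPM early and 204 to 215 TPM late, and Calcr was at 0 throughout. Endothelial markers (2 of 4 rose and 1 fell) summed to at most 12.0 TPM on the early and late days, and cartilage markers (2 of 5 rose and 1 fell) summed to 107 to 129 TPM early and 101 to 128 TPM late. Most of the osteoblast, macrophage and smooth muscle sums lay in 1 or 2 genes of each list. On day 18 Col1a1 was at 4263, Col1a2 at 4114 and Lyz2 at 1855 TPM, and on day 2 Acta2 was at 5155 TPM. Whether any of the cell types named by these lists contributed to the antagonist levels was not tested.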

How the data were processed

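RNA sequencing profiles of sorted mouse calvarial cells on 9 days were used, 27 profiles in all, grouped by the day in the sample labels. The authors amplified complementary DNA, aligned the reads to the mouse transcriptome of NCBIm37 (Bowtie 0.12.9) and used RSEM for quantification (1.2.8 per the submitters' processing notes). Per gene, the authors deposited the estimated count of RSEM without normalization. The deposited TPM are abundances per effective length, also from RSEM. Symbols and positions came from the GENCODE annotation of NCBIM37.

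TPM were scaled by the upper quartile of the nonzero values in each profile, and brought back to TPM by the mean of these quartiles. The estimated counts of the 3 lanes of a day were summed and rounded, and fitted across all genes with edgeR 4.0.16 in R 4.3.3 (quasi-likelihood test, upper-quartile factors, genes kept by filterByExpr at a minimum count of 10, and a Benjamini-Hochberg adjusted p under 0.05). A line in day was the main model, with the slope multiplied by 16 days, and a natural spline and late against early days were added. Alternatives were TMM factors, DESeq2 1.42.0, limma 3.58.1 on log2(TPM + 0.5) and log2(TPM + 0.1), other filters, the 27 profiles as separate samples, and each day and replicate left out. Replicate numbers coincided with lanes and did not pair profiles. Named genes were the 9 members, the 3 largest rises and falls and the 3 highest means of each pathway list, and the 3 genes most correlated with each member in log2(TPM + 0.5). Axin2, Sost and the single cell type markers named were chosen after their values were seen. The members and lists were chosen with earlier results of these data known. The number of days, with 1 library each, limits the precision of every test. Python 3.11.15 with scipy 1.17.1 gave 95% Wilson intervals, which cover counting error only. The human data of the study were not analysed here.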

Additional observations from a re-analysis of the deposited data

How the results depend on the processing

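Sfrp1, Sfrp2, Sfrp4 and Frzb kept their direction and their call under every alternative in which the line could be fitted. So did Dkk1, but wherever a filter was used it could be fitted only if its late counts passed, so those kept calls say nothing of stability. With no filter on low counts Dkk1 was at 5.47 (adjusted p = 0.000551, edgeR quasi-likelihood test). The fitted log2 changes with 1 day left out were 4.69 to 6.52 for Sfrp1, 8.99 to 11.2 for Sfrp2, 6.25 to 6.65 for Sfrp4, 1.81 to 2.54 for Frzb and 5.15 to 7.45 for Dkk1. They were -0.98 to -0.0667 for Dkk2, which passed without day 2, 0.54 to 1.40 for Dkk3 and -3.92 to -2.54 for Wif1. With 1 lane profile of each day left out, Wif1 lay between -3.58 and -2.35 and Dkk1 between 5.05 and 9.70. With no filter on low counts Wif1 was at -2.97 (adjusted p = 0.0527) and did not pass. Limma on log2(TPM + 0.5) and log2(TPM + 0.1) gave smaller changes for Dkk1 (1.78 and 3.52) and Wif1 (-1.02 and -2.05). For Dkk2 limma on log2(TPM + 0.5) and log2(TPM + 0.1) gave 0.0202 and 0.0259, the reverse sign of a change that did not pass in either fit, and the cause was not tested. In the comparison of late with early days Dkk2 was called lower without day 2, and Dkk3 was called higher without day 6, by DESeq2, and with the 18 profiles of these days as separate samples, with or without the block. Of 153 alternative values for the members' lines, 140 kept their direction and their side of the threshold. A minimum count of 50 and the 27 profiles without a block gave no line for Dkk1 and Wif1. The counts of all genes called stayed within 1.5 times of 8510 for the line, 9350 for the spline and 7840 for late against early days, for instance 10754 genes for the line over the 27 profiles and 10881 with the replicate block. To see whether replicate numbers paired the profiles, each gene's day mean was subtracted and the deviations were correlated between profiles of different days. The mean correlation was -0.00209 for the same replicate number and 0.00104 for different numbers, so the numbers did not pair the profiles. The replicate block gave -3.26 for Wif1, -0.32 for Dkk2 and 1.13 for Dkk3 and changed no call of a member's line. Counting depth limits Sfrp5, Dkk1 and Wif1, and the lack of an identified biological replicate limits every comparison.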
